A study of Mus musculus with 20 samples.

Results

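The genes described here build, cut and protect the extracellular matrix. They were 80 of the 55471 genes in a table of RSEM expected counts and were chosen by mouse symbol. The choice took every collagen chain (Col, a number, a, a number) except the hemidesmosome collagen Col17a1, every matrix metalloproteinase (Mmp), every tissue inhibitor of metalloproteinases (Timp), and Fn1, Sparc, Lox, Loxl1, Loxl2, Dcn, Lum, Bgn, Fbn1 and Postn. By class they were 11 fibrillar collagens, 11 basement membrane and network collagens, 8 chains of collagens VI, VII and XXVIII, 9 fibril-associated collagens, 4 transmembrane and other collagens, 23 MMPs, 4 TIMPs, 3 small proteoglycans, and 7 glycoproteins and crosslinking proteins.

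RNA was sequenced from 20 libraries of wild-type mice, with 5 libraries in each of 4 groups. Acetone skin was the epidermis of back skin given the acetone and olive oil carrier, and DNFB skin was the epidermis of back skin challenged with 0.25% DNFB, a contact allergen, 3 times a week for 22 days after sensitization on the abdomen. The study's methods describe mice of both sexes, 4 to 6 weeks old at the start, for the skin protocol. PBS pancreas was whole pancreas after intraperitoneal PBS, and caerulein pancreas was whole pancreas after 50 μg/kg caerulein in PBS, given 6 times a day at hourly intervals on 3 days a week for 3 weeks. Caerulein is an analog of cholecystokinin that overstimulates the enzyme-secreting acinar cells. C57BL/6 wild-type mice are the only wild-type strain named by the study, the age of the pancreas mice was not given in the sources used here, and nothing in the labels says which libraries came from separate mice, so p-values measure the spread between libraries. The question the samples answer here is how matrix genes differed in each inflamed tissue.

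Fibrillar collagens I and III form the tensile fibers of dermis and of scar, and fibroblasts, in pancreas also stellate cells, secrete most of them. Dcn (decorin) and Bgn (biglycan) coat these fibers, Fn1 (fibronectin) forms an early scaffold in injured tissue, Sparc is a collagen-binding glycoprotein, and Lox enzymes crosslink the fibers. MMPs cut matrix proteins, and TIMPs block the MMPs. Epidermis itself holds no fibrillar matrix and is joined to the dermis by a basement membrane of collagen IV, anchored with collagen VII, while chronic pancreatitis is known for fibrosis around the acini.

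Total counts per library ran from 791491 to 2232039, but 11 predicted genes of satellite-like sequence took from 37.8% to 94.3% of them. The counts left outside these genes ranged from 93048 to 1074202 in acetone skin, 150442 to 685832 in DNFB skin, 70021 to 202059 in PBS pancreas and 88226 to 592100 in caerulein pancreas. Counts were scaled by TMM within each tissue to normalized CPM (nCPM), a scale that does not compare skin with pancreas. A count of 3, the limit used for a count of 0, was worth between 0.585 and 9.67 nCPM in skin and between 0.590 and 5.95 nCPM in pancreas, and this floor covers counting error only. Keratinocyte markers held 91 to 10891 counts in the skin libraries and 0 to 15 in the pancreas libraries. Acinar markers held 3123 to 46262 counts in pancreas and 1 to 35 in skin, so skin and pancreas matched their labels. Within skin, keratinocyte markers took 0.0788% (DNFB library 14) to 1.16% (acetone library 12) of the counts outside satellite-like genes. Adipocyte and muscle markers summed to 90.2 to 241.5 nCPM in acetone and 60.1 to 163.7 nCPM in DNFB skin. The part of dermis carried over with the epidermis in the skin values was not tested. Acetone libraries 11 and 12 stood apart from the other 3 acetone libraries, with 265.4 and 474.6 nCPM on 7 macrophage markers against 9.67 to 39.8. They were also far deeper, with 1074202 and 938931 counts outside satellite-like genes against 93048, 124198 and 153197 in libraries 1, 2 and 3. The male gene Ddx3y had 8 and 9 counts in DNFB libraries 4 and 6, 4 and 14 in caerulein libraries 9 and 10, and 0 or 1 in all others. All libraries with more than 1 count are from inflamed groups. The female gene Xist had 7, 2, 25, 16 and 34 counts in PBS libraries 7, 8, 15, 16 and 17, so low Ddx3y counts alone do not give the sex. The part of sex in the values was not tested.

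Matrix genes were a small share of every library. They held 0.196% to 0.498% of the counts outside satellite-like genes in acetone skin, 0.182% to 0.231% in DNFB skin, 0.0633% to 0.753% in PBS pancreas and 0.361% to 1.96% in caerulein pancreas. The highest acetone shares were those of libraries 12 and 11 (0.498% and 0.446%, against at most 0.296% in the other 3 libraries). In pancreas, PBS library 8 had the 0.753% and caerulein library 10 the 1.96%, against at most 0.953% in the other 4 caerulein libraries. Without PBS library 8, the PBS shares would end at 0.228%, below every caerulein library. The 8 fibroblast markers summed to 17.04 to 70.9 nCPM in acetone, 13.8 to 59.1 in DNFB, 11.7 to 45.0 in PBS and 14.8 to 47.4 in caerulein libraries, so the groups of each tissue overlapped, and PBS library 8 had 14.8. In bulk tissue, more cells of a type and more RNA per cell cannot be told apart, and the part of fibroblast number in these shares was not tested.

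**Figure D1:**
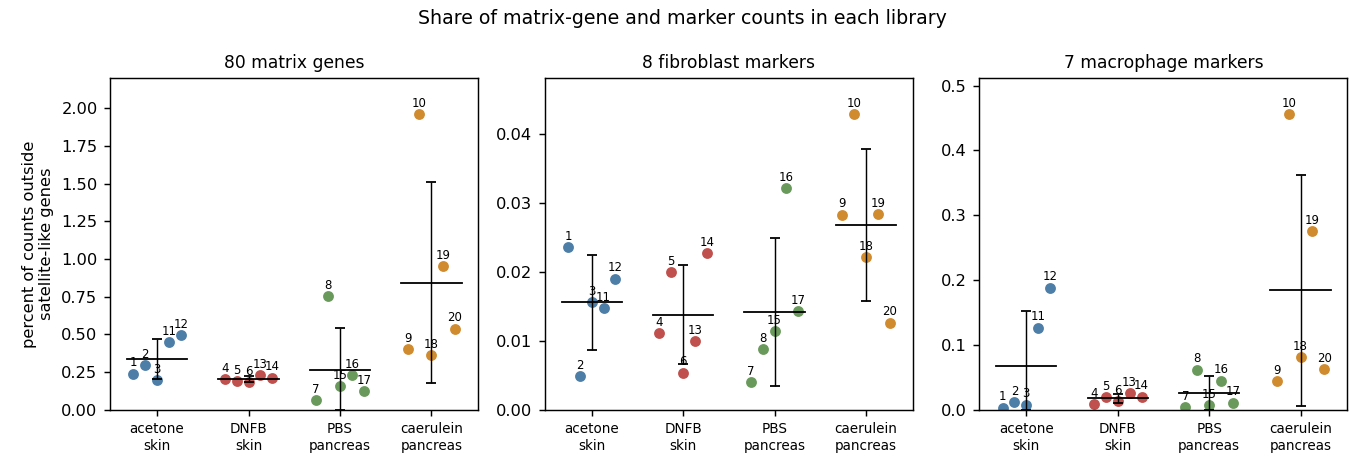
Percent of each library's counts outside satellite-like genes that fell on the 80 matrix genes, on 8 fibroblast markers and on 7 macrophage markers (vertical axes, separate scales) in the 4 groups. Points are libraries with their label numbers, the line is the mean and the bar is 1 SD on each side, ending at 0 where it would go lower. Matrix shares of caerulein library 10 (1.96%) and PBS library 8 (0.753%) lie far above those of their groups, and the macrophage share of caerulein library 10 is the highest of the 20.

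In skin, the chains of collagens I and III and the MMP inhibitor Timp2 had lower values after DNFB, and Mmp12 and Mmp13 higher values, but no matrix gene passed the test across all genes. Of the 80 genes, 21 had enough counts for edgeR's quasi-likelihood test, and 0 were called at an adjusted p under 0.05, with 5 at an unadjusted p under 0.05, beside 5.81% of all genes. Across all 7265 genes tested, 0.0275% were called higher and 0.0138% lower, so few genes of any kind passed. The median log2 fold change of the 21 matrix genes was -0.55, with 6 above 0, beside a median of 0.02 over all genes. DESeq2 called 2 of the 68 matrix genes with an adjusted p lower, Timp2 and Col1a2, and 0 higher, beside 0.173% of 23116 genes lower and 0.164% higher.

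Timp2, which binds MMPs and also helps to activate Mmp2 at the cell surface, had the smallest p. Its level in the acetone libraries 1, 2, 3, 11 and 12 was 35.4, 25.6, 8.90, 20.5 and 29.5 nCPM, and in the DNFB libraries 4, 5, 6, 13 and 14 it was 3.57, 3.40, 1.49, 5.88 and 6.69 nCPM. Every acetone library lay above every DNFB library, with means of 24.0 ± 10.1 and 4.21 ± 2.08 (SD, n = 5 each). The log2 fold change was -2.51 ± 0.53 (SE), with an edgeR adjusted p of 0.0900 and a DESeq2 adjusted p of 0.0110. The edgeR adjusted p was 0.0311 without acetone library 3, whose value was the lowest of its group, and lay between 0.147 and 0.326 when any other single library was left out. The DNFB values rest on 33 counts in all, against 240 in acetone.

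The 2 chains of collagen I and the chain of collagen III followed the same direction. Col1a2 held 90.2, 159.0, 33.8, 84.9 and 112.8 nCPM in acetone libraries 1, 2, 3, 11 and 12, and 21.4, 32.3, 27.3, 28.2 and 23.4 nCPM in the DNFB libraries, again without overlap. Its log2 fold change was -1.86 ± 0.54, with an edgeR adjusted p of 0.413 and a DESeq2 adjusted p of 0.0295. The DNFB libraries were close to each other, and the spread lay in the acetone group. Col1a1, the partner chain, ranged from 9.67 to 113.6 nCPM in acetone and from 4.46 to 34.5 nCPM in DNFB, and the ranges overlapped because of acetone library 1 (log2 fold change -1.92 ± 0.66, edgeR adjusted p = 0.618). Col3a1 ranged from 19.3 to 219.7 nCPM in acetone and from 18.7 to 39.6 nCPM in DNFB, also with overlap (log2 fold change -1.88 ± 0.63, edgeR adjusted p = 0.606). Without acetone libraries 11 and 12 the log2 fold change of Col1a2 was -1.73, with an edgeR adjusted p of 0.355.

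**Figure D2:**
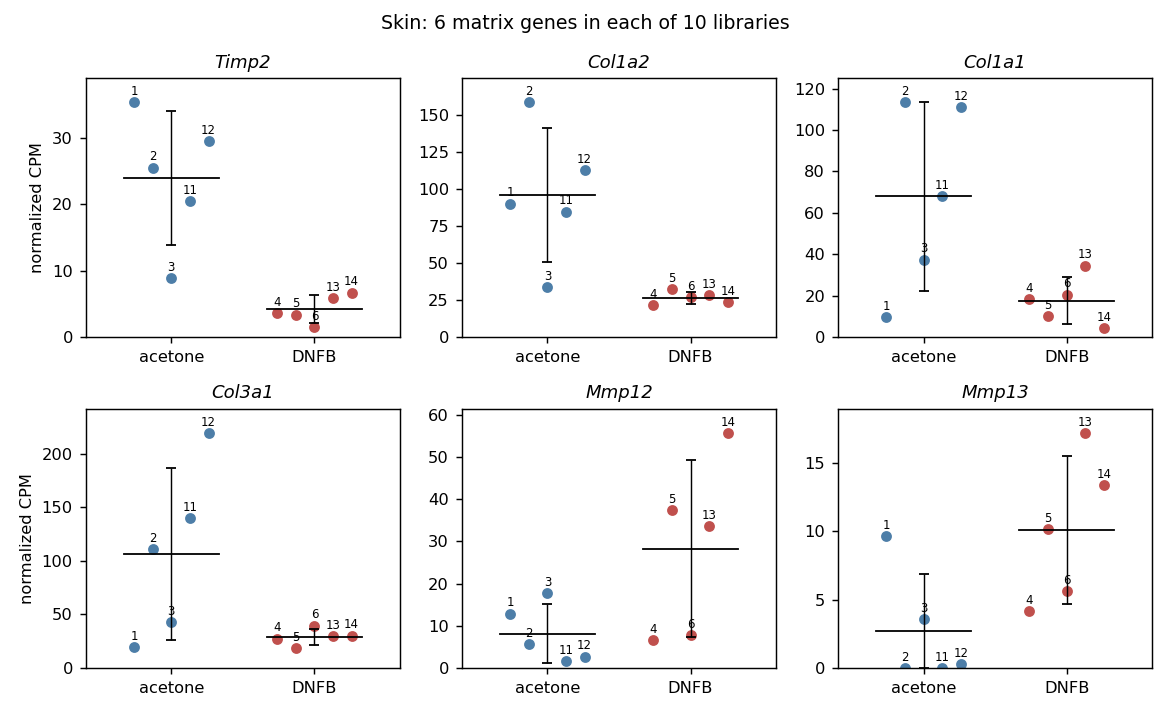
Normalized CPM (vertical axes, separate scales from 0) of Timp2, Col1a2, Col1a1, Col3a1, Mmp12 and Mmp13 in the 5 acetone and 5 DNFB skin libraries. Points are libraries with their label numbers, the line is the mean and the bar is 1 SD on each side, ending at 0 where it would go lower. Timp2 and Col1a2 separate the groups, while the other 4 genes overlap.

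Summed over the 11 fibrillar collagens, the level was 149.5 to 473.0 nCPM in acetone and 82.8 to 109.7 nCPM in DNFB. All 4 fibrillar collagens tested had negative fold changes, with a median of -1.87, and 0 were called. Of the 7 outside the fit, 6 had negative differences and 1, Col11a1, a positive one (1.40, exact permutation p = 0.151). As a share of all matrix counts in the same library, which needs no scaling between libraries, fibrillar collagens made up 27.8% to 39.9% in acetone and 15.3% to 22.1% in DNFB, and the ranges did not overlap. The share of MMPs was 7.15% to 19.3% in acetone and 10.2% to 27.7% in DNFB, which did overlap. These shares are a description of counts and were not tested.

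Mmp12, the macrophage metalloelastase, had the highest positive value among the MMPs tested. Its level was 12.9, 5.68, 17.8, 1.56 and 2.69 nCPM in acetone libraries 1, 2, 3, 11 and 12, and 6.55, 37.4, 7.85, 33.7 and 55.8 nCPM in DNFB libraries 4, 5, 6, 13 and 14. DNFB libraries 5, 13 and 14 lay above every acetone library, and DNFB libraries 4 and 6 lay within the acetone range. The log2 fold change was 2.06 ± 0.78, with an edgeR adjusted p of 0.711 and an unadjusted p of 0.0166. Within the libraries numbered 1 to 10 the difference in mean log2 nCPM was 0.19, and within those numbered 11 to 20 it was 3.96. Without acetone libraries 11 and 12, the fitted log2 fold change was 1.15 (edgeR adjusted p = 0.681). The macrophage markers were highest in acetone libraries 11 and 12, where Mmp12 was lowest.

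Mmp13 (collagenase 3), which cuts fibrillar collagen, and Mmp8 (the neutrophil collagenase) were too low for the fit and are named after their values were seen. Mmp13 had 3, 0, 2, 0 and 1 counts in the acetone libraries and 7, 6, 15, 44 and 12 counts in the DNFB libraries. The counts of every DNFB library exceeded those of every acetone library, but on the nCPM scale acetone library 1, with 9.67 nCPM from 3 counts, lay inside the DNFB range of 4.17 to 17.2. The difference in mean log2 nCPM was 2.32, with 1 count of the median library added (exact permutation p = 0.0317, two-sided, unadjusted). Mmp8 had 12 counts in acetone and 46 in DNFB, a difference of 1.95 (exact permutation p = 0.0556). The 6 neutrophil markers summed to 1.56 to 35.4 nCPM in acetone and 3.74 to 54.7 nCPM in DNFB, which overlapped, and their part in the Mmp8 values was not tested.

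Mmp12 and Mmp13 lie in 1 cluster of MMP genes on chromosome 9, and the bases before their starts are shown with those of Col3a1 and Col5a3, which had lower values in DNFB skin, because each pair had the same direction. RefSeq promoters were found for 60 of the 80 genes. The windows are the 250 bases before the annotated start, read 5′ to 3′ on the gene's strand, with capitals for the letters TGAGTCA or TGACTCA (the AP-1 motif), the CCAAT box, the TATAAA box and GGGCGG on either strand.
Mmp12, GRCm38, chr9:7347124-7347373, plus strand: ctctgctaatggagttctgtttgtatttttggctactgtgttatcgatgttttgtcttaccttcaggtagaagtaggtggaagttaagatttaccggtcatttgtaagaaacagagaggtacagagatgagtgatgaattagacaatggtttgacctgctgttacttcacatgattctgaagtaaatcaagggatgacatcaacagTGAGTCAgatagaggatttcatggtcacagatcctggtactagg
Mmp13, GRCm38, chr9:7272264-7272513, plus strand: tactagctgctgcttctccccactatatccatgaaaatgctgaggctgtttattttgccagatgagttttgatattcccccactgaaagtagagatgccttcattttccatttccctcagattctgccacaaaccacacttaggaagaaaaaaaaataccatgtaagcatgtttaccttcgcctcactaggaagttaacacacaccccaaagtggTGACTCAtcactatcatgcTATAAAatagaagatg
Col3a1, GRCm38, chr1:45311288-45311537, plus strand: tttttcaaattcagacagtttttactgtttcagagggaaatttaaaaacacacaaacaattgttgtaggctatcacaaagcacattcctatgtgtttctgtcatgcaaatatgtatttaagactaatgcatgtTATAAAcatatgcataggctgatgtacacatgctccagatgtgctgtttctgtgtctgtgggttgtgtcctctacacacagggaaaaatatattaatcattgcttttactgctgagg
Col5a3, GRCm38, chr9:20815068-20815317, minus strand: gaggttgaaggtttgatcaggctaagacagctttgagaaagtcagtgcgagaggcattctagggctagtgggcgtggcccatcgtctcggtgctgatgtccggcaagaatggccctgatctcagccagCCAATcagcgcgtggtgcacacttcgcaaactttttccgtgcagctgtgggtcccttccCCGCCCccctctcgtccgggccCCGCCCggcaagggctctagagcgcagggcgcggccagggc

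The AP-1 letters began 44 bases before the start in this Mmp12 window, which is the second of 2 RefSeq starts of that gene, and 35 bases before the start in Mmp13, followed by TATAAA at 16 bases. The window of the first Mmp12 start shares bases with an annotated exon and is not printed. For the same reason the windows of Timp2 and Col1a2, the genes DESeq2 called lower in skin, are not printed. Both genes are among the holders of CCAAT and of GGGCGG. The window of Col15a1, also lower in DNFB skin, held none of the 4 motifs and is not printed either. Col3a1 held TATAAA at 117 bases, and Col5a3 held CCAAT at 122 bases and the reverse complement of GGGCGG at 63 and 41 bases. AP-1 letters stood in 8 of the 60 matrix promoters (13.3%), against 5.16% of 27025 genes, and the 8 were Col6a1, Mmp10, Mmp12, Mmp13, Mmp1a, Mmp1b, Mmp3 and Mmp7. All but Col6a1 are MMPs on chromosome 9. CCAAT was found in 28.3% of matrix promoters and 37.5% of all genes, TATAAA in 21.7% and 14.3%, and GGGCGG in 53.3% and 35.4%. A match describes the letters of the window and does not show that a factor binds there. Of the AP-1 holders outside this pair, Mmp3 (stromelysin 1) had levels of 0.00 to 48.3 nCPM in acetone and 1.49 to 5.10 nCPM in DNFB skin.

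Among the genes outside the fit, several minor collagen chains had lower values after DNFB. Col15a1, a chain linked to basement membranes, ranged from 2.93 to 5.68 nCPM in acetone and from 0.00 to 2.24 nCPM in DNFB, and Col5a3, a chain that joins collagen I fibrils, from 3.22 to 5.68 and from 0.00 to 1.96 nCPM. Both separated the groups on the nCPM scale, with differences of -1.28 and -1.78 on the log2 scale. Their p was the smallest that 5 against 5 libraries can give (exact permutation p = 0.00794 each, two-sided, unadjusted). The counts themselves were few and overlapped. Col15a1 had 1, 2, 2, 15 and 17 counts in acetone and 3, 0, 6, 4 and 1 in DNFB. Col5a3 had 1, 2, 2, 19 and 18 counts in acetone and 1, 0, 5, 5 and 0 in DNFB. In acetone libraries 1, 2 and 3 both genes lay under the limit of 3 counts. Counting Timp2 and Col1a2, 4 of the 72 matrix genes with at least 10 counts in skin were lower without overlap and 0 were higher, beside 0.574% of 25956 genes lower and 1.08% higher. Of the 51 matrix genes outside the fit with at least 10 counts, 6 had lower and 2 had higher values at an exact p under 0.05, beside 2.43% of 18628 genes lower and 5.55% higher. Named after their values were seen, the 6 were Col15a1, Col5a3, Col5a1, Col7a1, Col16a1 and Mmp28, and the 2 were Mmp13 and Col19a1.

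Col7a1, which keratinocytes make as the anchoring fibril of the dermal junction, had 161 counts in acetone and 24 in DNFB. Its level was 12.9, 34.1, 7.12, 16.4 and 15.3 nCPM in acetone and 7.14, 3.40, 1.87, 1.18 and 2.23 nCPM in DNFB, and only acetone library 3 and DNFB library 4 touched. The difference was -2.20 (exact permutation p = 0.0159). The balance of directions moved with the scaling, for genes of any kind as well as for matrix genes. When libraries were scaled by their totals alone, 1 of the 72 matrix genes was lower without overlap (Col8a2, a network collagen). Another 2 were higher (Col19a1 and Mmp13), beside 0.108% of all genes lower and 2.71% higher. Timp2 (exact p = 0.0476) and Col1a2 (0.286) then overlapped between the groups. Under the same scaling, 2 of the 51 matrix genes outside the fit had lower values at an exact p under 0.05 (Col8a2 and Mmp28). Higher values were found for 3 (Col19a1, Mmp13 and Mmp8), beside 0.735% of genes lower and 11.9% higher. Col15a1 (exact p = 0.302), Col5a3 (0.143) and Col7a1 (0.0873) were not among these, and the exact p of Mmp13 was 0.00794.

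Several abundant matrix genes in skin turned on acetone libraries 11 and 12. Dcn had 0.00, 110.7, 17.8, 158.8 and 165.7 nCPM in acetone and 77.4, 37.4, 95.3, 44.7 and 34.6 nCPM in DNFB, so the DNFB values lay inside the acetone range. The log2 fold change was -0.66 ± 0.81 (edgeR adjusted p = 0.976), and it was 0.60 without those 2 libraries. Fn1 had 6.44, 11.4, 1.78, 56.0 and 82.5 nCPM in acetone and 6.55 to 21.2 nCPM in DNFB (log2 fold change -1.35 ± 0.72, edgeR adjusted p = 0.884), and it turned to 1.22 without them. Mmp2 (gelatinase A) had 3.22, 11.4, 1.78, 45.1 and 48.1 nCPM in acetone against 3.35 to 5.36 nCPM in DNFB, a difference of -1.21 outside the fit (exact permutation p = 0.246). In acetone libraries 1, 2 and 3, Fn1 had 2, 4 and 1 counts and Mmp2 had 1, 4 and 1, near the limit of 3. Dcn had 0, 39 and 10 counts there. The values without libraries 11 and 12 rest on these acetone counts. In the fit without acetone library 3, Mmp2 was called lower together with Timp2, beside 0.176% of genes. The 8 fibroblast markers summed to 31.0 and 48.1 nCPM in libraries 11 and 12, on 159 and 179 counts. In libraries 1, 2 and 3 the sums were 70.9, 17.04 and 42.7 nCPM, on 22, 6 and 24 counts. Within the list, Dpt had 58 and 48 counts in libraries 11 and 12 against 1, 1 and 1. Pdgfra had 32 and 35 counts against 5, 0 and 6. The part of fibroblasts in these values was not tested.

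The remaining named genes in skin did not pass the test. Sparc, Postn (periostin, a collagen-binding protein), Bgn, Col6a2, Col18a1 (a basement membrane collagen) and the membrane-bound Mmp14 had log2 fold changes from -1.14 to -0.21, with edgeR adjusted p from 0.884 to 0.976. Col25a1, a transmembrane collagen, had 1.59 ± 0.77 (edgeR adjusted p = 0.876), and the membrane-bound Mmp16 had 0.75 ± 0.66 (edgeR adjusted p = 0.965). Timp3, which binds to the matrix, stood at 8.52 to 30.6 nCPM in acetone and 14.5 to 33.6 nCPM in DNFB, with a log2 fold change of 0.16 ± 0.47 (edgeR adjusted p = 0.987). Under library totals the value was on the other side of 0, at -0.027. Col14a1 and Col6a1, outside the fit, had differences of -0.30 and -0.85 (exact permutation p = 0.762 and 0.278).

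In pancreas, Dcn and Fn1 had the highest fold changes of the matrix genes tested, and Dcn was the only one to pass the test. Of the 11 matrix genes tested, edgeR called 1 higher and 0 lower, beside 8.14% of all 946 genes higher and 4.02% lower. At an unadjusted p under 0.05 there were 2 of the 11, beside 29.3% of all genes. The median log2 fold change of the 11 was 0.68, with 9 above 0, beside -0.003 over all genes. DESeq2 called 2 of the 31 matrix genes with an adjusted p, Dcn and Fn1, beside 7.44% of 8618 genes higher.

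Dcn had 7.32, 85.4, 23.8, 14.4 and 13.9 nCPM in PBS libraries 7, 8, 15, 16 and 17, and 52.1, 411.2, 66.3, 289.7 and 189.4 nCPM in caerulein libraries 9, 10, 18, 19 and 20. All caerulein libraries lay above 4 of the 5 PBS libraries, and PBS library 8 lay above caerulein libraries 9 and 18. The means were 29.0 ± 32.1 and 201.7 ± 152.1 nCPM (SD, n = 5 each), and the log2 fold change was 2.78 ± 0.81 (SE, edgeR adjusted p = 0.0361, DESeq2 adjusted p = 0.00879). The call was lost without satellite-like genes (2.52, edgeR adjusted p = 0.0557) and in 7 of 10 fits that left out 1 library, namely PBS library 7, 15, 16 or 17 or caerulein library 10, 19 or 20, with adjusted p from 0.0682 to 0.136. Across those 10 fits its lowest and highest log2 fold changes were 2.28 and 3.78. The difference in mean log2 nCPM was 2.46 within the libraries numbered 1 to 10 and 3.12 within those numbered 11 to 20.

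Fn1 had 7.32, 88.9, 3.97, 16.2 and 6.18 nCPM in PBS and 30.3, 470.9, 40.6, 177.7 and 58.8 nCPM in caerulein. Again PBS library 8 alone crossed into the caerulein range. The log2 fold change was 2.63 ± 0.95, with an edgeR adjusted p of 0.0765 and a DESeq2 adjusted p of 0.0390. Caerulein library 10 carried 69.0% of the group's 3440 Fn1 counts, and without it the log2 fold change was 1.66 (edgeR adjusted p = 0.283). Without PBS library 8 it was 4.21 (edgeR adjusted p = 0.0122).

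**Figure D3:**
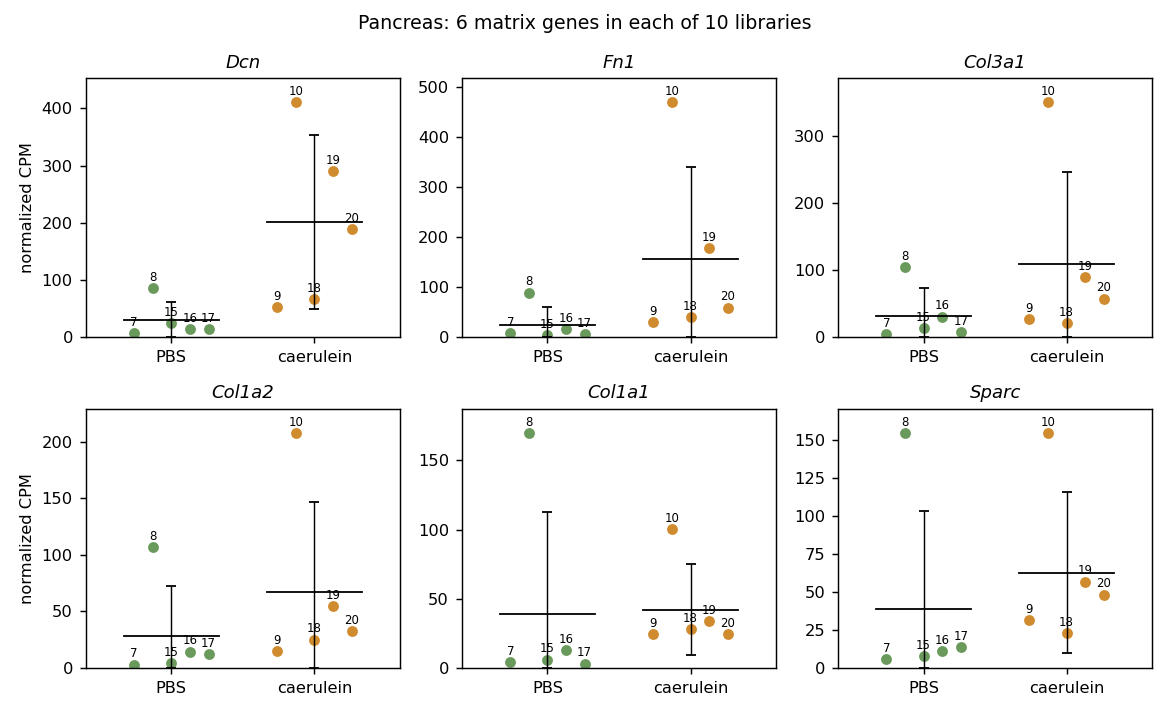
Normalized CPM (vertical axes, separate scales from 0) of Dcn, Fn1, Col3a1, Col1a2, Col1a1 and Sparc in the 5 PBS and 5 caerulein pancreas libraries. Points are libraries with their label numbers, the line is the mean and the bar is 1 SD on each side, ending at 0 where it would go lower. PBS library 8 is the highest PBS point for all 6 genes, and caerulein library 10 is the highest caerulein point for all 6.

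The 3 fibrillar collagens tested in pancreas had positive fold changes that did not pass the test, and of the 8 outside the fit 4 had positive and 4 negative differences. Col3a1 had 4.39, 104.6, 13.9, 30.6 and 7.73 nCPM in PBS and 26.7, 351.7, 21.1, 89.6 and 57.6 nCPM in caerulein (log2 fold change 1.74 ± 0.90, edgeR adjusted p = 0.204). Col1a2 had 2.93, 107.2, 3.97, 14.4 and 12.4 nCPM in PBS and 14.5, 208.1, 25.0, 54.9 and 32.8 nCPM in caerulein (log2 fold change 1.22 ± 0.91, edgeR adjusted p = 0.374). Col1a1 had 4.39, 170.0, 5.95, 12.6 and 3.09 nCPM in PBS and 24.2, 100.4, 28.1, 33.7 and 24.6 nCPM in caerulein. Here PBS library 8 was the highest of all 10 libraries and held 92.9% of the PBS counts, and the log2 fold change was 0.08 ± 0.91 (edgeR adjusted p = 0.964). Apart from PBS library 8, every caerulein library lay above every PBS library for Col1a1.

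Which matrix genes were called depended on PBS library 8. Without it edgeR called 7 of the 11 matrix genes tested higher and 0 lower, namely Col1a1, Sparc, Dcn, Col3a1, Fn1, Col1a2 and Bgn, and the median log2 fold change was 2.71, while 14.4% of all genes in that fit were called higher and 6.61% lower. Without both PBS library 8 and caerulein library 10, an alternative chosen after seeing the data, 5 of 8 were called higher beside 11.1% of all genes, namely Col1a1 (2.46), Sparc, Dcn (3.84), Fn1 (3.67) and Col1a2. Without caerulein library 10 alone, edgeR called 0 of 11, with 1 at an unadjusted p under 0.05 and a median of 0.05, beside 2.21% of all genes called higher. PBS library 8 had 103.7 nCPM on macrophage markers against 9.92 to 62.9 in the other PBS libraries. Its 14.8 nCPM on fibroblast markers lay within the 11.7 to 45.0 of the others, and its 20.9 nCPM on stellate and smooth muscle markers lay above their 5.86 to 12.6. These sums rest on few counts. Fibroblast markers had 17 in PBS library 8 against 8, 8, 25 and 13, and stellate and smooth muscle markers 24 against 4, 3, 7 and 6. The part of these cells in its collagen counts was not tested.

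Sparc had 5.86, 154.3, 7.93, 10.8 and 13.9 nCPM in PBS and 31.5, 154.5, 22.6, 56.7 and 48.2 nCPM in caerulein (log2 fold change 0.68 ± 0.86, edgeR adjusted p = 0.604). Bgn had 0.00, 50.6, 0.00, 5.40 and 1.55 nCPM in PBS and 7.27, 52.0, 8.58, 20.4 and 12.2 nCPM in caerulein (0.71 ± 0.91, edgeR adjusted p = 0.610). Both genes showed the same layout as Col1a1, with all caerulein libraries above 4 PBS libraries and about level with or below the fifth. Timp2, by contrast with its values in skin, had 0.26 ± 0.70 (edgeR adjusted p = 0.821). Mmp14 and Mmp16 had log2 fold changes of -0.74 ± 0.70 and -0.73 ± 0.64 (edgeR adjusted p = 0.491 and 0.459). Both turned positive under library totals, where the median of all genes moved to 1.86.

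Decorin and fibronectin were also set against collagen I within each library, a measure that needs no scaling between libraries. Dcn counts divided by the summed counts of Col1a1 and Col1a2 were 1.34, 1.33, 1.25, 3.27 and 3.30 in caerulein libraries 9, 10, 18, 19 and 20. In PBS library 8, the only PBS library with more than 15 collagen I counts, the quotient was 0.308. For Fn1 the quotients were 0.781, 1.53, 0.765, 2.01 and 1.02 in caerulein and 0.321 in PBS library 8. The other PBS libraries had 5 to 15 collagen I counts and quotients of 0.533 to 2.40 for Dcn and 0.400 to 1 for Fn1, which overlap the caerulein quotients. Proteoglycans made up 13.8% to 33.6% of matrix counts in caerulein and 4.69% to 11.1% in PBS libraries, with no overlap, and the glycoprotein and crosslinking class 17.4% to 31.4% and 16.7% to 24.7%. MMPs made up 2.59% to 15.4% in caerulein and 6.20% to 25.9% in PBS libraries. These quotients were chosen after the values were seen and were not tested.

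**Figure D4:**
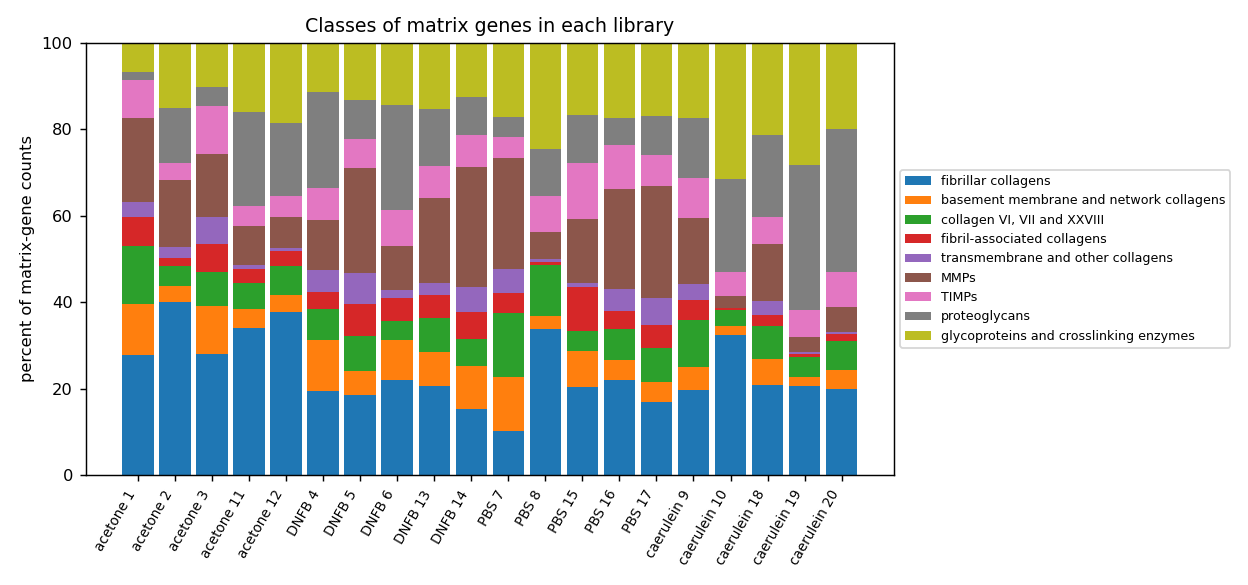
Percent of matrix-gene counts (vertical axis, 0 to 100) in each of 9 classes, stacked, for the 20 libraries (horizontal axis). Fibrillar collagens take 27.8% to 39.9% of the bar in acetone and 15.3% to 22.1% in DNFB libraries, and proteoglycans take 13.8% to 33.6% in caerulein and 4.69% to 11.1% in PBS libraries.

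Of the 23 MMPs, 2 had enough counts for the fit in pancreas, and of the 4 TIMPs only Timp2 had. Mmp17, a membrane-anchored MMP, had 2.93 to 7.19 nCPM in PBS and 0.00 to 2.34 nCPM in caerulein, on 14 and 9 counts, and was the only matrix gene of 63 with at least 10 counts whose groups did not overlap (difference -1.46, exact permutation p = 0.00794). Without overlap, 0 matrix genes were higher, beside 1.55% of 19937 genes higher and 0.853% lower. Of the 52 matrix genes outside the fit with at least 10 counts, 2 had higher values at an exact p under 0.05 (Mmp7 and Col6a6, named after their values were seen) and 1 lower (Mmp17), beside 7.53% of 18946 genes higher and 3.69% lower. Mmp7 (matrilysin), known from duct-like cells of injured pancreas, had 0 counts in every PBS library and 0, 9, 2, 1 and 13 counts in the caerulein libraries (exact permutation p = 0.0476). Timp1, the inducible inhibitor, had 224 counts in caerulein, 209 of them in library 10, and 14 in PBS (exact permutation p = 0.540). Timp4 had 152 of its 160 caerulein counts in library 20. With library totals alone, 14 genes outside the fit had higher values at an exact p under 0.05 and 0 had lower ones, beside 23.1% of genes higher and 0.338% lower. Under that scaling Col6a6 and Mmp9 were higher without overlap and 0 matrix genes were lower, beside 4.63% and 0.11% of genes, and Mmp17 overlapped between the groups (exact p = 0.0952).

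All 7 tested acinar markers had negative fold changes in pancreas, with a median of -3.57, and edgeR called 6 of them lower. Their share went from 4.40% to 22.9% of the counts outside satellite-like genes in PBS libraries to 0.562% to 6.59% in caerulein. Macrophage markers summed to 47.3, 503.2, 88.1, 267.8 and 73.4 nCPM in caerulein libraries 9, 10, 18, 19 and 20 and 9.92 to 103.7 nCPM in PBS, and 0 of the 2 tested were called. Caerulein libraries 10 and 19, the highest for Dcn and Fn1, were also the highest for macrophage markers, while the fibroblast markers had 47.4 and 27.6 nCPM there against 30.3, 24.2 and 14.8 in libraries 9, 18 and 20. Duct markers summed to 27.9 to 203.7 nCPM in caerulein and 1.98 to 10.8 nCPM in PBS. In caerulein libraries 9, 10, 18, 19 and 20 the duct list had 23, 271, 85, 174 and 1036 counts. Spp1 (osteopontin) held 7, 183, 54, 122 and 632 of these. Spp1 is also in the list of elastic and matricellular proteins below. The part of these cell types in the matrix values was not tested.

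Genes that fold, trim, signal for or bind matrix were counted from 5 further lists. In skin, edgeR called 0 of the 6 tested genes for collagen folding and processing, 0 of 10 for laminins and basement membrane, 0 of 4 for TGF-beta signals, 0 of 8 for elastic and matricellular proteins and 0 of 6 for collagen receptors and turnover. Over the 34 genes, 8 had an unadjusted p under 0.05 in edgeR, beside the 5.81% of all genes. DESeq2, over all listed genes, called 1, Spp1 (osteopontin), beside 0.173% of 23116 genes lower and 0.164% higher. The median log2 fold changes of the lists were -0.63, -0.58, 0.77, 0.20 and -0.13, beside 0.02 over all genes. In pancreas only 1, 1, 0, 3 and 1 genes of these lists could be tested by edgeR, and 0 were called or had an unadjusted p under 0.05. DESeq2, without that filter, called 3, Spp1, the collagen receptor Ddr1 and the hyaluronan receptor Cd44. Over 8618 genes given an adjusted p, it called 641 higher and 94 lower. How many genes of the lists were given a DESeq2 adjusted p was not counted.

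Fold changes had opposite signs in the 2 tissues for several matrix genes, but no difference between the tissues passed the test in edgeR. The difference between the caerulein effect and the DNFB effect was fitted over all 20 libraries, where 0 of 30 matrix genes were called by edgeR, beside 0.264% of 8336 genes. At an unadjusted p under 0.05 there were 8 of the 30, beside 18.5% of all genes. The largest positive differences among the named genes were those of Fn1 (3.56 ± 1.30, edgeR adjusted p = 0.156), Col3a1 (3.26 ± 1.17, adjusted p = 0.147), Dcn (3.08 ± 1.21, adjusted p = 0.178) and Col1a2 (2.69 ± 1.14, adjusted p = 0.207), and Timp2 had 2.47 ± 0.96 (adjusted p = 0.178). Mmp12 had the lowest value, -2.32 ± 1.07 (edgeR adjusted p = 0.239). DESeq2 called 4 of 57 higher, Timp2, Dcn, Col3a1 and Fn1, beside 3.73% of 16186 genes. Under edgeR without PBS library 8 there were 8 of 36 higher, beside 1.69% of 9755 genes. The median of the 30 genes was 0.70, beside 0.38 over all genes.

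**Figure D5:**
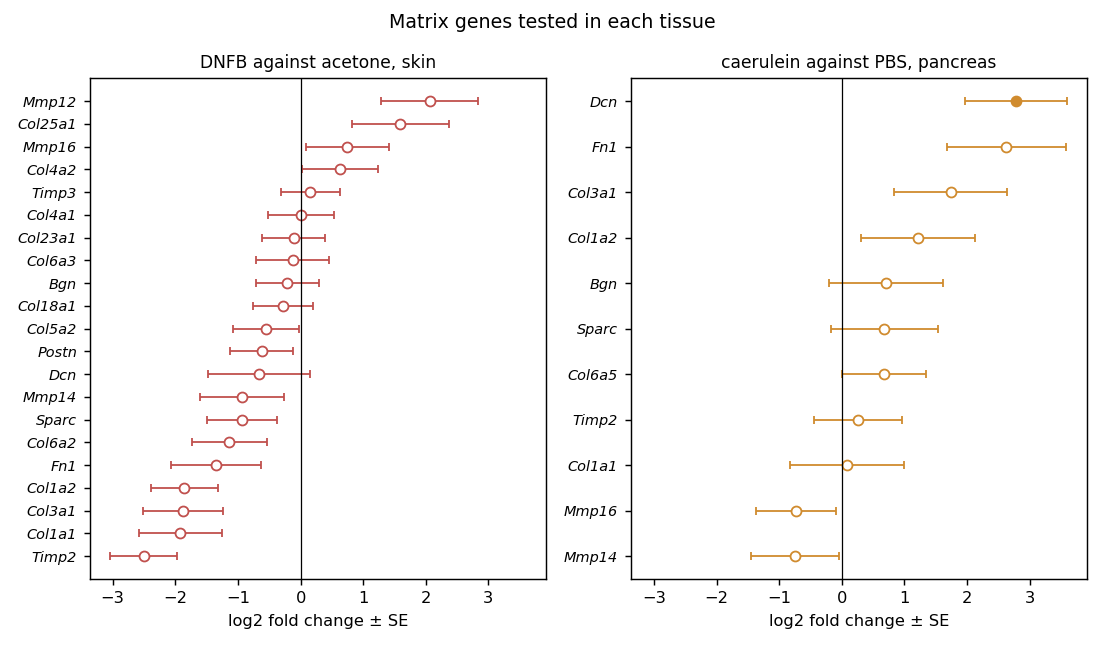
Log2 fold change with its SE (horizontal axis) of the 21 matrix genes tested in skin (left, DNFB against acetone) and the 11 tested in pancreas (right, caerulein against PBS). Filled points have an edgeR adjusted p under 0.05, which holds only for Dcn in pancreas, and Timp2 (-2.51) is the lowest value in skin.

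Between the control tissues, given their carriers, few matrix genes could be compared. Acetone skin and PBS pancreas were fitted together, 6 matrix genes were tested and 0 were called by edgeR (0 at an unadjusted p under 0.05), beside 25.1% and 35.7% of 736 genes. The log2 differences, skin minus pancreas, were 0.66 for Col3a1, 0.60 for Dcn, 0.56 for Col1a2, -0.44 for Col1a1, -1.11 for Timp2 and -1.15 for Sparc, with SE from 0.71 to 0.99. DESeq2 called 1 of 49 lower in skin, Mmp16, beside 3.1% of 12862 genes. Without PBS library 8, Col1a1 and Col1a2 were called higher in skin, beside 19.4% of 1353 genes.

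Ranked by mean level per kilobase of exon within a group, Dcn stood first in acetone skin (15.5 nCPM per kb), in DNFB skin (9.91) and in caerulein pancreas (34.6), and Sparc stood first in PBS pancreas (10.2). In acetone skin Sparc (11.1), Col3a1 (10.9) and Col1a1 (10.4) followed. In DNFB skin Sparc (5.74), Mmp12 (3.90) and Mmp13 (3.78) followed, ahead of Col3a1 (2.97). In caerulein pancreas the next were Sparc (16.6), Fn1 (13.3) and Col3a1 (11.1), and in PBS pancreas Timp2 (6.19), Col1a1 (5.97) and Dcn (4.96). The libraries spread widely around each of these means. Medians over all 5 PBS libraries, library 8 included, were 3.56 for Timp2, 2.85 for Sparc, 2.46 for Dcn and 0.907 for Col1a1. Neighbors in these orders were not tested against each other.

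Exons of some of these genes overlap exons of another gene. The end of Mmp12 shares exonic bases with Mmp1b on the opposite strand, Timp3 with Syn3, Fn1 with Apol7d and Col15a1 with Gm12426, and Col3a1 shares bases on its own strand with Gm47302. Smart-Seq2 reads carry no strand, so reads from such stretches cannot be assigned to either gene with certainty.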

How the data were processed

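Epidermis and pancreas were lysed, and libraries were made with a modified Smart-Seq2 protocol, which uses neither strand nor molecular identifiers. Per the labels and the study's methods, the authors mapped reads to the mouse genome mm10 (GRCm38) with STAR 2.5.3 and deposited RSEM 1.3.1 expected counts per gene, which are not normalized. The submitters' processing notes also name DESeq2 1.24.0. Of the deposited estimated counts, 94.708% were whole numbers, and the rest were rounded here. Names and coordinates came from GENCODE M21, and promoter windows from RefSeq on GRCm38.p6. The table had 0 unused columns of samples.

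Groups followed the treatment labels. Each tissue was fitted apart with edgeR 4.0.16 in R 4.3.3 (filterByExpr with minimum count 10, TMM, glmQLFTest, Benjamini-Hochberg adjustment over all genes tested, threshold 0.05), and the tissue effects were compared by an interaction over all 20 libraries. DESeq2 1.42.0 was an alternative. Genes outside the fit were given an exact permutation test, two-sided, of mean log2 nCPM with 1 count of the median library added, without adjustment. The smallest possible p was 0.00794. Level per kilobase used the union of exons. DESeq2 shares are over genes given an adjusted p. Library totals alone, other filters, a term for label numbers 1 to 10 against 11 to 20, removal of 11 satellite-like genes (at least 50% of 15-base words shared) and leaving out libraries were further alternatives.

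Named genes were those called by edgeR in a main fit (skin, pancreas, difference between tissues or control tissues), not in an alternative. They also included the 10 with most counts in a tissue and the gene with most counts in each class. Genes with at least 10 counts and no overlap, and the 3 smallest p per direction and tissue, were added, 22 genes in all. Genes outside this rule are said to be named after their values were seen, or appear as holders of a motif, as lists of calls or in the ranking. The members and lists were chosen with earlier results of these data known, and nothing here is independent support for them.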

Additional observations from a re-analysis of the deposited data

Results flagged for a closer look

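Among 88 groups of 5 values of the named genes, 6 held a library far from the other 4, where about 1 in 20, or 4.4, would be set apart by chance. In skin, Col14a1 was low in DNFB library 4 (1.191 nCPM, others 4.46 to 6.79), Col18a1 was low in acetone library 2 (2.84 nCPM, others 9.40 to 13.1) and Sparc was low in DNFB library 14 (10.04 nCPM, others 22.6 to 29.2). In pancreas, Col1a1 was high in caerulein library 10 (100.4 nCPM, others 24.2 to 33.7), Sparc was high in PBS library 8 (154.3 nCPM, others 5.86 to 13.9) and Postn was low in caerulein library 10 (0.595 nCPM, others 3.12 to 4.38).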

How the results depend on the processing

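The main limit is depth. Only 21 matrix genes in skin and 11 in pancreas passed the filter, and 3 counts were worth up to 9.67 nCPM in the shallowest skin library. Acetone libraries 11 and 12, PBS library 8 and caerulein library 10 decided many values. The cause of the changes below was not tested.

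No paired analysis was possible because the labels give each library a number of its own and the groups share none. In skin, the number of matrix genes called lower went from 0 to 2 with DESeq2 and from 0 to 2 over the fits without 1 library. In pancreas, the number called higher went from 1 to 4 with library totals, 2 with DESeq2, 3 without a filter (Dcn, Fn1 and Timp4), 2 with the term for label numbers, 0 without satellite-like genes, 0 to 7 over the fits without 1 library, and 5 without PBS library 8 and caerulein library 10. For the difference between tissues it went from 0 to 4 with DESeq2, 6 without a filter and 0 to 8 over the fits without 1 library. Between the control tissues it went from 0 to 2 higher without a filter and 0 to 2 over the fits without 1 library, and to 1 lower with DESeq2. Exact tests gave 5 genes in skin and 14 in pancreas under library totals. Over genes of any kind, edgeR called 554 of 946 higher in pancreas with library totals and 1237 of 38895 without a filter. It called 81 of 946 with the term for label numbers and 52 of 1175 without satellite-like genes. Without a filter, 933 of 45075 genes were called higher for the difference between tissues and 980 of 40039 between the control tissues. 

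Signs turned for the following log2 values. In skin, Bgn was 0.028 with the term for label numbers and -0.52 to 0.094 over the fits without 1 library. Without acetone libraries 11 and 12, Bgn was 0.93, Dcn 0.60 and Fn1 1.22. The acetone libraries left had 3, 3 and 3 counts of Bgn and 2, 4 and 1 of Fn1. Timp3 was -0.027 with library totals, -0.16 with 10 counts required in every library of a group, and -0.025 to 0.34 without 1 library. In pancreas, Col1a1 was -0.17 without satellite-like genes and -0.53 to 2.71 without 1 library, Timp2 -0.20 to 1.33 and Mmp14 -1.17 to 0.79. With library totals, Mmp14 was 0.83, Mmp16 0.69, Col25a1 0.56, Mmp12 1.20 and Postn 0.83.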
